A study of Mus musculus with 2 samples.

Results

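The Kcnq1-Cdkn1c region of mouse chromosome 7 is an imprinted cluster, and the 10 genes described here are Ascl2, Tspan32, Cd81, Tssc4, Kcnq1, Kcnq1ot1, Cdkn1c, Slc22a18, Phlda2 and Osbpl5, listed in chromosome order. They were taken by name from the 53843 genes annotated on the autosomes and the X chromosome, and 9 of them code for protein. Between the first base of Ascl2 and the last base of Osbpl5 the region spans 790.2 kb of build mm10 (chromosome 7, 142966829 to 143756985). Trimethylation of lysine 27 of histone H3 (H3K27me3) was measured by chromatin immunoprecipitation and sequencing in E14TG2a.4, an embryonic stem cell line from a male embryo of mouse strain 129/Ola, to which the labels give an age of 3.5 days. The series has 1 group of 2 samples, given as biological replicates 1 and 2 of this single line, and no other group, treated or mutant, to compare with it. No RNA measurement was used here, so the cell type label was not checked against expressed markers. With 1 group and 2 replicates no test between conditions is possible, so every value is a description, given for each replicate.

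The mark is deposited by Polycomb repressive complex 2 and is found at silent developmental genes. In an imprinted cluster the genes are expressed mainly from the copy inherited from one parent. Here the control element is the promoter of Kcnq1ot1, a long non-coding RNA that starts inside Kcnq1 and is transcribed against it. The promoter carries DNA methylation on the maternal copy, so that the RNA is made from the paternal copy, on which Cdkn1c, Phlda2, Slc22a18 and, in the placenta, genes farther away such as Ascl2 are silenced. The peaks carry no parental assignment. A mark on 1 copy in every cell, a mark on both copies in some cells and a weaker mark throughout cannot be told apart.

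H3K27me3 lay over the region in blocks with long breaks between them. The region held 189 peaks in replicate 1 and 249 in replicate 2, which covered 34.5% and 35.0% of its bases, and 30.4% was covered in both replicates. Genome-wide, without the Y chromosome, the covered shares of sequenced bases were 2.10% in replicate 1, 2.28% in replicate 2 and 1.53% in both. Sequencing depth is unknown for both lists, so an absent peak can also mean too few reads. Of the bases covered in either replicate, 77.8% were covered in both in this region, against 53.9% in the series as a whole. In the other regions compared below, this share ranged from 18.6% (Peg3 to Usp29) to 94.0% (Hoxd13 to Hoxd1), with 76.0% from Nespas to Gnas. Of the peaks in the region, 162 of 189 in replicate 1 (85.7%) and 196 of 249 in replicate 2 (78.7%) met one of the other list, against 73.6% and 53.7% in the whole series.

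The contrast on which the results turn is between starts with and without a peak, and the bases just before 4 of these starts are given here from RefSeq on GRCm38.p6, which has the coordinates of mm10, written 5′ to 3′ on the strand of the gene. Those of Kcnq1ot1 (chr7:143296550-143296797, minus strand) and Cd81 (chr7:143052500-143052738, plus strand) lie at starts without a peak. Those of Ascl2 (chr7:142969265-142969514, minus strand) and Osbpl5 (chr7:143757009-143757258, minus strand) lie at starts under peaks in both replicates. Capitals mark the GC box motif GGGCGG, the CAAT box motif CCAAT and the TATA box motif TATAAA, searched on both strands, so that a motif on the other strand appears as its reverse complement.
Kcnq1ot1: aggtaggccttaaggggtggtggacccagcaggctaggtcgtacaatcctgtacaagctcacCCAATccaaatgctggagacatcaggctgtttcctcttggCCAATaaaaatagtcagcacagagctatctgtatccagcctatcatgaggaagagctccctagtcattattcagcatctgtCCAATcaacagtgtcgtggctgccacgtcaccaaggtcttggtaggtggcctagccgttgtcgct
Cd81: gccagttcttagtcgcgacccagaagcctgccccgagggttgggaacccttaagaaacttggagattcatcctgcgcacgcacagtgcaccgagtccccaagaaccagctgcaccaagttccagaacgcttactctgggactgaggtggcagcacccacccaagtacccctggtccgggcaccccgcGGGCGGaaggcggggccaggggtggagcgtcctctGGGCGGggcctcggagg
Ascl2: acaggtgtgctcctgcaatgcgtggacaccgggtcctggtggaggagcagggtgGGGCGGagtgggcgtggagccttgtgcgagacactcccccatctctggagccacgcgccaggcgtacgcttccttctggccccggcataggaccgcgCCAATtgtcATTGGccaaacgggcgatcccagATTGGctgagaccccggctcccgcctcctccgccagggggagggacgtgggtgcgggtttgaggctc
Osbpl5: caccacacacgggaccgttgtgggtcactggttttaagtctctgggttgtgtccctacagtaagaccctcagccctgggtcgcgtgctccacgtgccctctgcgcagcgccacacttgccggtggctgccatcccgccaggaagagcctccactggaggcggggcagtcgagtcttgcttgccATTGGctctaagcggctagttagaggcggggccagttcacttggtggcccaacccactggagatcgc

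The Kcnq1ot1 sequence of 248 bases held 3 copies of CCAAT, all on its own strand, and 5 CpG dinucleotides. The Cd81 sequence of 239 bases held 2 copies of GGGCGG and 15 CpG dinucleotides. The Ascl2 sequence of 250 bases held 1 GGGCGG, 3 copies of CCAAT over both strands and 19 CpG dinucleotides, and that of Osbpl5 held 1 CCAAT, on the other strand, and 14. No motif hits overlapped each other in these sequences, and TATAAA was in none of them. In the 250 bases before the start of 32851 RefSeq promoters, 32.7% held GGGCGG, 33.8% held CCAAT and 12.4% held TATAAA. Sequences of the other unmarked starts are not shown. The 250 bases of Tspan32 held 1 CpG dinucleotide and the 197 bases of Slc22a18 held 0, and neither held any of the motifs. The 131 bases of Tssc4 held 10 CpG dinucleotides and 1 CCAAT, on the other strand. The sequences differ in length and some are shorter than 250 bases, so their counts are not like for like with each other or with these shares. The motifs are a description of these windows only. The RefSeq promoters include 8 of the 10 genes, with no entry for Kcnq1 or Cdkn1c. The sequence before the start of Phlda2, which is marked, is not described here.

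A 5′ end counts as marked when the window of 1 kb on each side of it (2001 bp) overlaps a peak in both replicates. By this rule 5 of the 10 genes were marked, namely Ascl2, Kcnq1, Cdkn1c, Phlda2 and Osbpl5, all of which code for protein. The other 5, Tspan32, Cd81, Tssc4, Kcnq1ot1 and Slc22a18, had no peak in the window in either replicate. The replicates thus gave the same call for each of the 10 genes. How often they gave the same call over all genes is not given here, so this agreement is not set against a background. Of all 21755 protein-coding genes 26.1% were marked, beside 5 of the 9 protein-coding genes here, and 20.6% of the 2958 genes annotated as antisense RNA, the class of Kcnq1ot1. The median window of the 10 genes had 385.5 bp covered in both replicates, which lies midway between 0 bp and the 771 bp of Phlda2 and describes no single gene. The median was 0 bp over all protein-coding genes and 1021 bp over those marked in both replicates. At least 50% of the window was covered in both replicates at 4 of the 10 genes, and at 13.3% of all protein-coding genes.

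**Figure D1:**
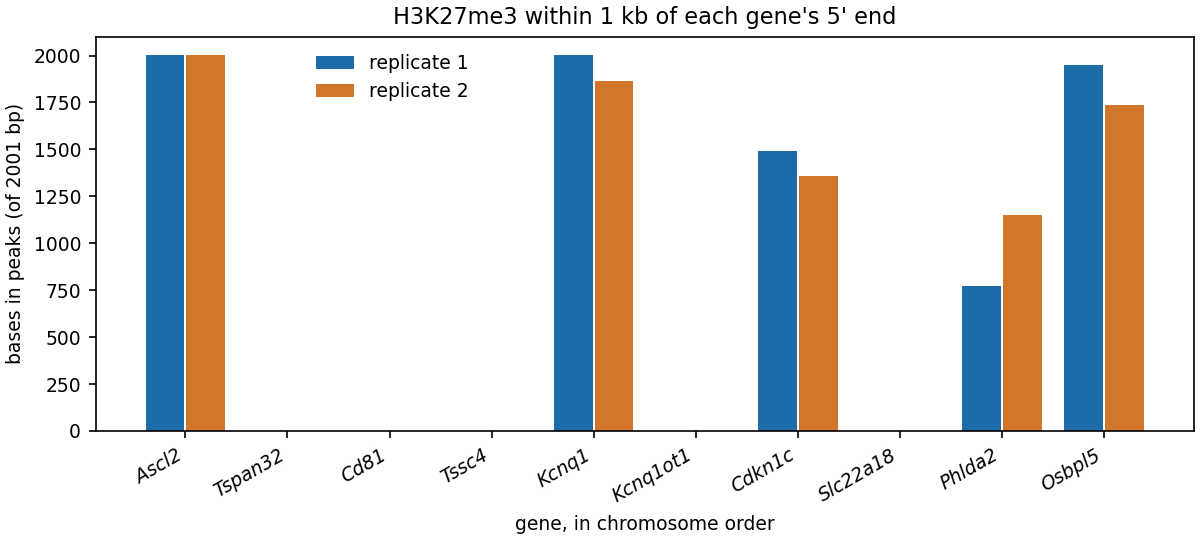
Bases in H3K27me3 peaks within 1 kb of the 5′ end of each gene, out of 2001 bp, as 1 bar for each replicate. Ascl2, Kcnq1, Cdkn1c, Phlda2 and Osbpl5 have bars in both replicates, from 771 bp to 2001 bp, and the other 5 genes are at 0 in both.

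The non-coding RNA gene Kcnq1ot1 (143203458 to 143296549, minus strand), whose transcription silences its neighbours on the paternal copy, started in a long stretch without the mark. Its 5′ end at 143296549 lay 2771 bp from the nearest base marked in both replicates, on the Cdkn1c side. In the direction in which the RNA is transcribed, the next such base was 76.3 kb away. The unmarked stretch between them ran over 79.1 kb (143220214 to 143299319) and took in 82.0% of the 93.1 kb Kcnq1ot1 gene. Unmarked here means that no base was covered in both replicates. No peak of replicate 1 lay wholly inside the stretch, and 2 of replicate 2 did, the stronger with a signal value of 4.52. When replicate 1 is left out the stretch around the start shrinks to 45.6 kb, bounded by that peak, while the 5′ end stays without one. Over the gene body, 2.35% was covered in replicate 1 and 3.00% in replicate 2. The 16.8 kb at its 3′ end, outside the unmarked stretch, had 13.1% and 11.5% covered and held all 2190 covered bp of replicate 1 and 1933 of the 2789 bp of replicate 2. Annotated repeats made up 26.4% of the unmarked stretch and 21.6% of the region, and the stretch held 0 unsequenced bases. The share of repeats was 12.9% to 13.3% in the 3 longest marked blocks of the region and 24.0% in the block at Ascl2. The part of repeats in the result was not tested.

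Coverage stepped up steeply on the other side of the Kcnq1ot1 start. In 20 kb steps from it, the 3 steps within 60 kb along the RNA had at most 1.42% of their bases covered in either replicate, and replicate 1 had 0% in all 3. The first 20 kb towards Cdkn1c had 73.3% covered in replicate 1 and 71.6% in replicate 2, and the next 20 kb had 94.4% and 90.8%. From there to 160 kb the steps stayed between 72.4% and 93.9% in replicate 1 and between 68.9% and 91.9% in replicate 2. Beyond the Kcnq1ot1 3′ end, 100 to 120 kb from the start, the coverage was again high, at 95.8% and 94.9%.

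**Figure D2:**
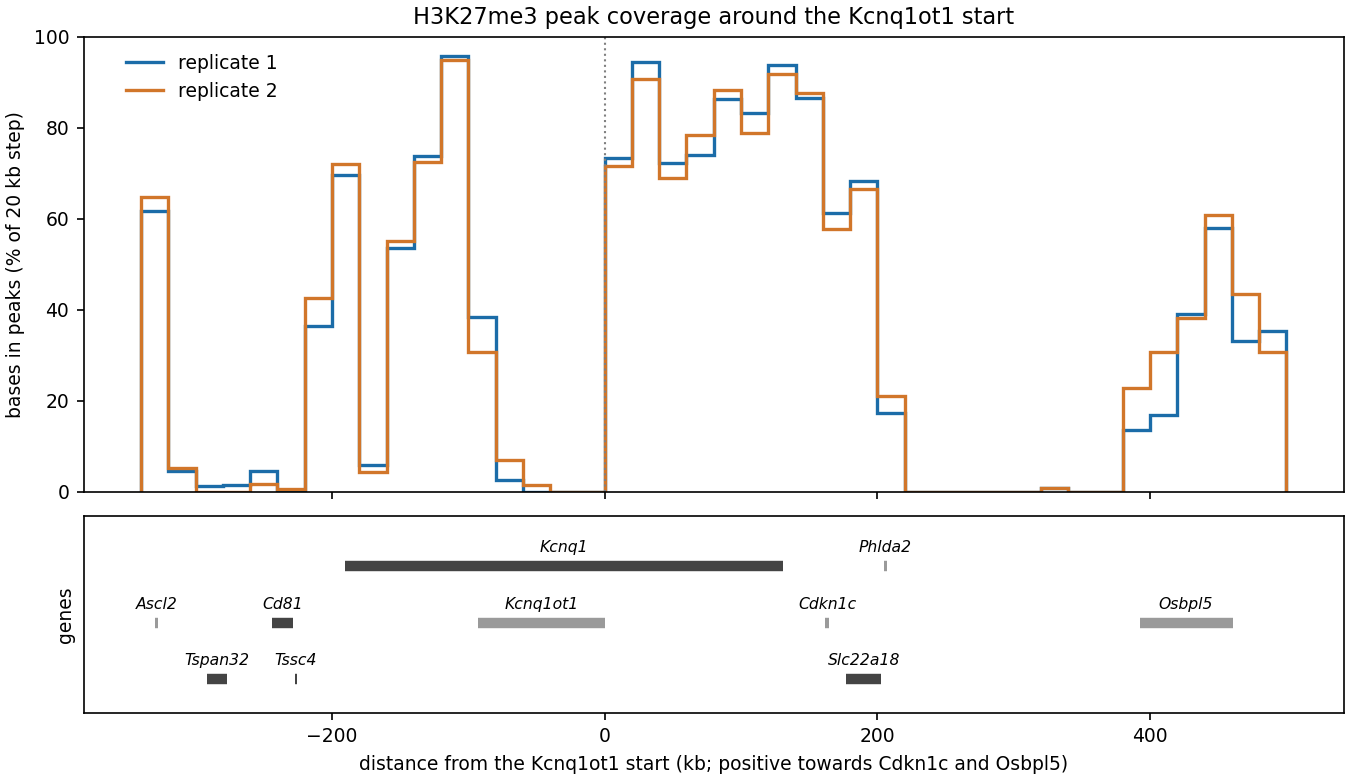
Share of bases in H3K27me3 peaks in 20 kb steps, by distance from the Kcnq1ot1 start (dotted line), as 1 line for each replicate, with the 10 genes below (dark bars, plus strand; light bars, minus strand). Both lines are at 0% in the 40 kb left of the dotted line and at 68.9% or more in every step of the 160 kb to its right.

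Kcnq1 (143106362 to 143427042, plus strand), which codes for the pore-forming subunit of a potassium channel of heart and inner ear and spans Kcnq1ot1, was marked at its start and over much of its length. Its 5′ window was covered over 2001 bp in replicate 1 and 1865 bp in replicate 2. The strongest peak there had signal values of 14.5 and 15.6, the highest of the region in each replicate and above 99.5% and 99.8% of all peaks of the list. All 7 annotated transcript starts of Kcnq1 were marked. The 320.7 kb gene body had 52.2% covered in replicate 1 and 51.2% in replicate 2, with 47.2% in both, spread unevenly along the gene. The 97.1 kb before Kcnq1ot1 had 60.6% and 58.5% covered, the part that Kcnq1ot1 overlaps had 2.35% and 3.00%, and the 130.5 kb after it had 81.5% and 80.2%.

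The introns of Kcnq1 followed the same division only in part. In its transcript with the most exons, 16, the exons had 96.0% of their bases covered in both replicates. Intron 1 (41.8 kb) and intron 2 (33.1 kb), both before Kcnq1ot1, had 33.2% and 73.2% covered in replicate 1. In replicate 2 they had 32.9% and 70.7%. Intron 11 (97.3 kb), which holds the Kcnq1ot1 start, had 51.1% covered in replicate 1 and 49.0% in replicate 2, more than intron 1. Intron 10 (65.9 kb), which holds most of the rest of the unmarked stretch, had 14.2% and 13.6%. Intron 15 (62.2 kb), toward Cdkn1c, had 81.8% and 81.9%. The 4933417O13Rik gene, an antisense RNA annotated within the Cdkn1c side of Kcnq1, had its window covered over 2001 bp and 1973 bp and its body over 83.1% and 80.4%. Its start was thus covered in both replicates, unlike that of Kcnq1ot1, which also begins inside Kcnq1 on the other strand.

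Cdkn1c (143458339 to 143461050, minus strand), which encodes the cell cycle inhibitor p57 and is expressed from the maternal copy, lay in the longest block. Its window was covered over 1491 bp in replicate 1 and 1360 bp in replicate 2, and its body over 96.5% and 93.8%. The top signal values at its 5′ end were 13.2 and 11.6, above 98.8% and 98.1% of the peaks of each list. The 5′ end itself at 143461050 was 65 bp from the nearest base marked in both. All 5 annotated starts were marked. The 31.3 kb between the end of Kcnq1 and Cdkn1c had 90.2% and 90.7% covered, and 87.6% was covered in both. One peak in this interval, 8278 bp long in replicate 1 (143440164 to 143448441) and 6413 bp long in replicate 2 (143441998 to 143448410), had signal values of 14.2 and 14.7, the second highest of the region in each replicate, with no start of the 10 genes within 1 kb.

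**Figure D3:**
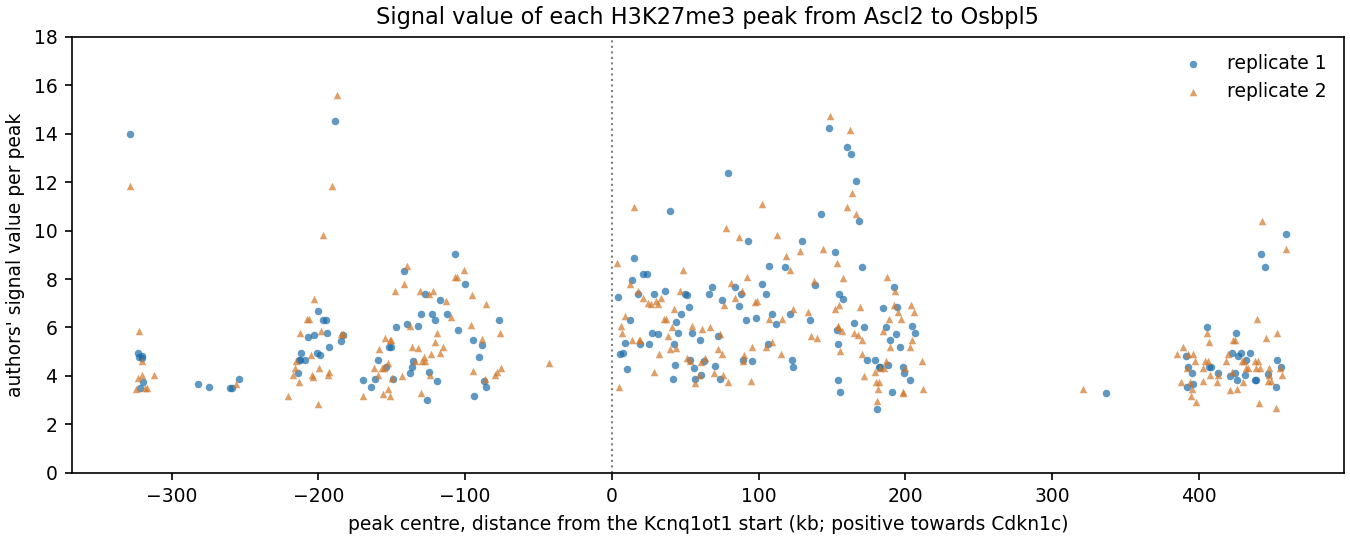
Authors' signal value of each peak from Ascl2 to Osbpl5, by the distance of its centre from the Kcnq1ot1 start (dotted line), with circles for replicate 1 and triangles for replicate 2. The highest value of each replicate, 14.5 and 15.6, stands at the Kcnq1 start, and a single triangle, at 4.52, lies in the 60 kb left of the dotted line.

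Bases marked in both replicates and lying within 3 kb of each other were joined into domains, of which 20 touched the region and 7 were 10 kb or longer. The longest ran for 112.1 kb (143357175 to 143469261) from within Kcnq1 past Cdkn1c, the only protein-coding start in it, and 80.9% of its length was covered in both replicates. It ranked 5 among 16987 domains of the series. The next in length above it (127.4 kb, 84.1% covered) held the Hoxd genes and Evx2, and the next below it (94.7 kb, 89.6% covered) held Lmx1b. A domain of 54.2 kb (143299320 to 143353564) began 2771 bp from the Kcnq1ot1 start and ended 3610 bp before the longest one. With replicate 1 left out, the joined domain around Cdkn1c was 170.0 kb long. Length and rank rest on the joining distance, since the longest domain was 57.2 kb when bases within 1 kb were joined and 169.9 kb within 5 kb. Another domain of 47.9 kb (143154553 to 143202426) lay in Kcnq1 and ended about where Kcnq1ot1 ends, at 143203458. These 3 domains held 72.1% of the bases of the region marked in both replicates.

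Slc22a18 and Phlda2, the genes on the far side of Cdkn1c, differed at their starts although both bodies were covered. Slc22a18 (143473736 to 143499334, plus strand), which encodes a membrane protein related to organic cation transporters, had no peak in its window in either replicate, and the nearest base marked in both was 2150 bp away, inside the gene. Its body was covered over 54.9% in replicate 1 and 55.1% in replicate 2. Of its 5 annotated transcript starts 1 was marked. Phlda2 (143501545 to 143503150, minus strand), which encodes a pleckstrin homology domain protein that restrains growth of the placenta, had a window with 771 bp in peaks of replicate 1 and 1148 bp in peaks of replicate 2, with top signal values of 6.08 and 6.65. These were the lowest of the 5 marked genes in each replicate, above 78.7% and 87.1% of the peaks of each list. Its body was covered over 77.0% and 93.0%.

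Right after Phlda2 no base was marked in both replicates over 185.2 kb (143503290 to 143688457), the longest such stretch of the region. Peaks covered 0.25% of it in replicate 1 and 1.08% in replicate 2. It holds the starts of Nap1l4, a histone chaperone of the nucleosome assembly family, Cars, the cysteine tRNA ligase of the cytosol, and Tnfrsf26, Tnfrsf22 and Tnfrsf23, receptors of the tumour necrosis factor family. Of these, Tnfrsf23 had 483 bp of its window covered in replicate 2, with 0 bp in replicate 1, and the other 4 had no peak in theirs. Repeats made up 33.5% of this stretch, 21.6% of the region and 19.6% of the unmarked stretch that holds Tspan32, Cd81 and Tssc4.

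Ascl2 (142966829 to 142969264, minus strand), which encodes a basic helix-loop-helix transcription factor that the placenta requires, stood in a block at the other end. Its window was covered over all 2001 bp and its body over 100% in both replicates. The top signal values were 13.97 in replicate 1 and 11.8 in replicate 2, above 99.3% and 98.3% of the peaks of each list. The 8537 bp peak of replicate 1 and the 8373 bp peak of replicate 2 that cover the gene lay in a domain of 15.5 kb (142961293 to 142976806).

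Tspan32, Cd81 and Tssc4 shared the next unmarked stretch, of 106.1 kb (142976807 to 143082928), in which peaks covered 2.26% of replicate 1 and 2.53% of replicate 2, none in common. Tspan32 (143005046 to 143019644, plus strand), which encodes a tetraspanin of blood cells, lay 28.2 kb from the nearest base marked in both, and its body was covered over 1.58% in replicate 1 and 0% in replicate 2. Cd81 (143052739 to 143067934, plus strand), which encodes a tetraspanin present on many cell types, lay 30.2 kb away. Tssc4 (143069249 to 143071093, plus strand), which encodes a factor in assembly of the U5 particle of the spliceosome, lay 13.7 kb away. Both had 0% of the body covered in both replicates. None of the annotated transcript starts was marked, of which Tspan32 has 11, Cd81 has 6 and Tssc4 has 7. On the Kcnq1 side the stretch ended inside Trpm5, an ion channel gene of taste cells, whose window was covered over 820 bp and 978 bp.

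Osbpl5 (143688762 to 143756985, minus strand), which encodes a lipid transfer protein related to oxysterol-binding protein and forms the outer edge, was marked again. Its window was covered over 1948 bp in replicate 1 and 1739 bp in replicate 2, with top signal values of 9.86 and 9.25, and 5 of its 7 transcript starts were marked. Its body was covered over 37.0% and 43.0%, in short domains of which the longest inside or at the gene, at the 5′ end, was 17.6 kb and ran on past the gene to 143766762. The replicates had 27.7% of the Osbpl5 body in common, so a larger part of each list was not shared here than at Kcnq1 or Cdkn1c.

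**Figure D4:**
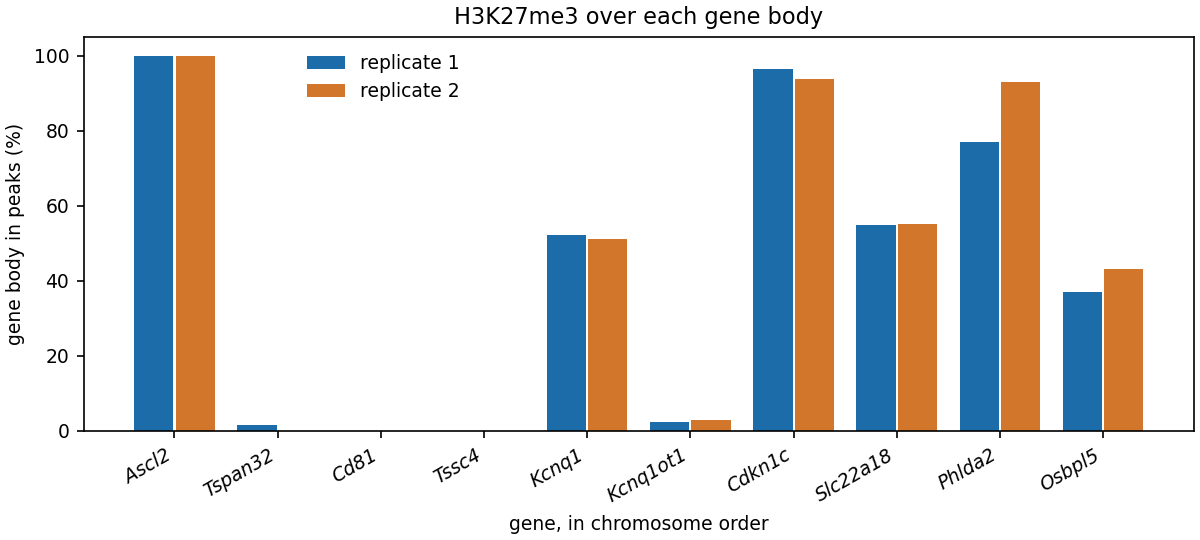
Share of each gene body in H3K27me3 peaks, as 1 bar for each replicate, with genes in chromosome order. Ascl2 and Cdkn1c are at 93.8% or more in both replicates, Kcnq1 and Slc22a18 between 51.2% and 55.1%, and Kcnq1ot1, Tspan32, Cd81 and Tssc4 at or under 3.00%.

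The number of genes with a covered body depended on the limit set. At least 25% of the body was covered in both replicates at 6 of the 10 genes. Kcnq1ot1, Tspan32, Cd81 and Tssc4 had at most 1.29%. The share of all protein-coding genes at the limit of 25% is not given here. At least 50% of the body was covered in both replicates at 3 of the 10 genes, Ascl2, Cdkn1c and Phlda2, and at 4.48% of all protein-coding genes. With either replicate left out 5 genes reached it, since Kcnq1 and Slc22a18, at 47.2% and 46.6% in common, were just under the limit. The median body of the 10 genes was covered in both over 37.1%, and that of all protein-coding genes over 0%. The bodies of Kcnq1 and Kcnq1ot1 share bases and are not independent.

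The starts of the marked genes did not share a CpG content. In the 1001 bp around the 5′ end the ratio of observed to expected CpG was 0.882 at Cdkn1c, 0.631 at Ascl2, 0.514 at Phlda2, 0.401 at Osbpl5 and 0.284 at Kcnq1. Among the starts without a peak it was 0.727 at Cd81, 0.679 at Tssc4, 0.448 at Kcnq1ot1, 0.124 at Tspan32 and 0.0892 at Slc22a18. The 2 ranges overlap, and the median over all protein-coding genes was 0.558. Of the unmarked starts, those of Cd81 and Tssc4 were above this median and those of Tspan32, Slc22a18 and Kcnq1ot1 below it.

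Of the other coding and long non-coding genes annotated inside the region, 3 of 13 were marked, namely Trpm5, 4933417O13Rik and Gm44732. They were 1 of 6 protein-coding and 2 of 7 non-coding genes, beside 26.1% of all protein-coding and 20.6% of all antisense RNA genes. Gm44732 is an antisense RNA that overlaps Cdkn1c, and its window, covered over 2001 bp in replicate 1 and 1954 bp in replicate 2, shares bases with that of Cdkn1c. Gm28821, an antisense RNA inside Kcnq1, had a window with 1198 bp in peaks of replicate 2 and none of replicate 1. The neighbours beyond the edges differed. Th, the rate-limiting enzyme of catecholamine synthesis, next to Ascl2, had 1534 bp and 1487 bp of its window covered, and Mrgprg and Mrgpre, receptors next to Osbpl5, had 770 bp and 1626 bp, and 1574 bp and 1252 bp. Beyond Mrgprg and Mrgpre, Nadsyn1, an enzyme of NAD synthesis, and Dhcr7, an enzyme of cholesterol synthesis, had no peak in theirs. Beyond Th, the window of Ins2 had 0 bp covered in each replicate, although 7 of its 9 annotated transcript starts were marked. Farther out, Igf2 had 1845 bp and 1861 bp, and H19 had 0 bp and 278 bp.

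Set beside other imprinted regions, each taken from the first to the last base of the genes that name it, Ascl2 to Osbpl5 came after H19 to Igf2 in the share of bases covered in each replicate. It had 34.5% covered in replicate 1 and 35.0% in replicate 2, against 9.23% and 9.57% from Dlk1 to Dio3 and 2.51% and 2.80% from Igf2r to Slc22a3. Airn, another silencing RNA made from the paternal copy, is transcribed from within Igf2r. The interval from H19 to Igf2, 91.3 kb on the same chromosome, had 38.0% and 41.8%, but 29.8% in both replicates against 30.4% from Ascl2 to Osbpl5. Nespas to Gnas had 17.0% and 15.7%. Peg3 to Usp29 and Ndn to Ube3a had at most 0.461% in either replicate. Hoxd13 to Hoxd1, a cluster that is not imprinted, had 93.2% and 90.1%. The regions differ in length, gene content and repeats, and no test was made between them.

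**Figure D5:**
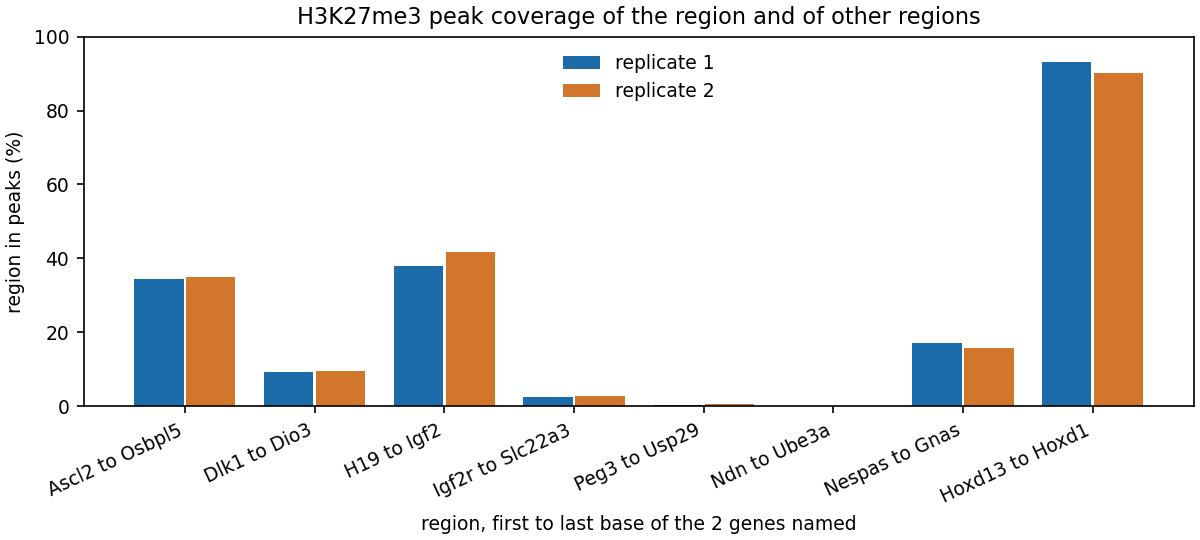
Share of bases in H3K27me3 peaks from the first to the last base of the 2 genes named, as 1 bar for each replicate, with Ascl2 to Osbpl5 at the left. It stands at 34.5% and 35.0%, near H19 to Igf2, above the other 5 imprinted regions and below the Hoxd genes.

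Signal values of the replicates went together along the region. Of 159 steps of 5 kb, 85 held a peak in each replicate, and over these the strongest signal value per step correlated with rho = 0.804 (Spearman) and r = 0.829 (Pearson). Steps share libraries and neighbouring chromatin, so the correlation describes these samples and carries no p value. The median signal value of the peaks was 5.33 in replicate 1 and 5.21 in replicate 2.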

How the data were processed

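H3K27me3 ChIP-seq peak lists of 2 samples were read as deposited. Per the file records, each mm10 list is in narrowPeak format, and the main lists are the pseudoreplicated lists, made for each replicate with a control alignment as a parent file. Neither these records nor the labels name an aligner, a peak caller or a threshold. The signal value of a peak is the authors' own, with a scaling that is not given, and serves only to rank and describe. The deposited −log10 q was used for 1 alternative, which left the peak coverage of the region unchanged. A list on mm9 and 2 other mm10 lists of the series were not used here. Depth per sample is unknown, so no interval was computed.

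Gene models were those of GENCODE mouse release 21 (GRCm38), and the RefSeq GRCm38.p6 sequence has the mm10 coordinates; 0 peaks lay past a chromosome end. Peaks were merged per replicate, and overlap needed 1 bp. Common bases within 3 kb formed domains. The interval functions were tested on simulated data. The members, gene lists and measures were chosen with earlier results of these data known. Named genes are the 10 members and a listed set of neighbours and regions. Alternatives were other peak lists, a −log10 q of at least 2, each replicate left out, and other windows, joining distances and limits. Analyses used Python 3.11.15, NumPy 2.4.6, SciPy 1.17.1 and Matplotlib 3.10.9.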

Additional observations from a re-analysis of the deposited data

How the results depend on the processing

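The count of 5 marked 5′ ends ranged from 4 to 6 over 10 alternatives. Tspan32, Cd81, Tssc4 and Kcnq1ot1 had 0 bp of their window covered in each other mm10 list that was read, and Slc22a18 had 150 bp and 263 bp in the relaxed lists of replicates 1 and 2. The share of the region covered was 32.9% with the relaxed lists, 41.5% with the replicated list and 41.6% with the list of both libraries together, and 34.5% to 35.0% with 1 replicate left out. The longest domain measured 171.7 kb, 171.8 kb and 172.5 kb with these lists, 57.2 kb when joined within 1 kb, 169.9 kb within 5 kb, and 114.2 kb to 170.0 kb with 1 replicate left out; the break of 3610 bp beside it is longer than the joining distance of 3 kb and shorter than 5 kb. Genes with 50% of the body covered numbered 6 with the replicated list and with the list of both libraries, 6 when 10% sufficed, 5 with either replicate left out, 4 with the relaxed lists and 2 when 75% was asked for. The unmarked stretch around the Kcnq1ot1 start was 45.7 kb, 45.6 kb and 44.9 kb long with the relaxed, replicated and joint lists, 45.6 kb to 79.1 kb with 1 replicate left out, and 97.4 kb when common runs under 500 bp were dropped. In the relaxed, replicated and joint lists peaks covered 1.33% to 2.01% of the 79.1 kb stretch. A −log10 q of at least 2 left the covered share of the region at 34.5% in replicate 1 and 35.0% in replicate 2, as in the main lists. All 5 results therefore kept their values, and this setting is no separate check of them. Depth limits what an absent peak can show.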
